A study of Mus musculus with 12 samples.

Results

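The genes described here are the kinases and core subunits of the pyruvate dehydrogenase complex: the kinases Pdk1, Pdk2, Pdk3 and Pdk4, the E1 subunits Pdha1 and Pdhb, the E2 subunit Dlat and the E3-binding protein Pdhx. They were chosen by name, as the array rows that name exactly 1 gene of this list, with 1 row kept per gene. All 8 were measured, each by a single row, and they make up 8 of the 19933 genes analysed. No row naming several genes held any of them.

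Pyruvate dehydrogenase turns pyruvate into acetyl-CoA inside mitochondria and so decides whether carbon from glucose enters the citrate cycle. The Pdk kinases phosphorylate the E1 alpha subunit Pdha1 and switch the complex off, and the phosphatases Pdp1 and Pdp2 remove the phosphate and switch it on again. In fat, the acetyl-CoA made this way feeds oxidation or fatty acid synthesis, and Pdk4 is best known as the kinase that is raised when tissues burn fatty acids in place of glucose.

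The mice were males aged 20 weeks, either Per2-/- (called KO below) or per2+/+ (called WT), and RNA came from their white fat (WAT) or their brown fat (BAT). The Per2 protein represses transcription within the circadian clock, and the labels attribute the line to Bae and colleagues. All mice received chow ad libitum, were kept in 12 h of light and 12 h of dark, and were killed at the same time, which the labels do not give as a clock time. The 4 groups were WAT of KO, WAT of WT, BAT of KO and BAT of WT, with 3 biological replicates and 1 single-colour Affymetrix array each. The allele is present in every tissue, so a difference in fat need not arise in fat. The labels do not say whether WAT and BAT samples with the same number came from 1 animal, nor which fat depot was taken as WAT.

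Intensities are in linear PLIER units, the output of the authors' probe summary, and have no read depth; with 3 arrays per group the median standard error of a log2 difference was 0.127 over all genes. Values of different genes come from different probes and are not set against each other as levels. The median intensity over the genes was 81.0 to 88.3 on the 3 WAT arrays of KO, 85.7 to 89.0 on those of WT, 67.4 to 68.4 on the BAT arrays of KO and 66.0 to 70.3 on those of WT. Per2 itself read 116, 108 and 172 in WAT of KO against 116, 99.5 and 122 in WT, and 138, 151 and 158 in BAT of KO against 174, 158 and 163 in WT (limma with Benjamini-Hochberg adjustment, adjusted p = 0.614 in WAT and 0.773 in BAT). The sources used here do not say whether the probes of this row lie in the disrupted stretch, and the row therefore does not check the genotype. WAT of KO replicate 3 stood apart: its rank correlation with the other KO arrays of WAT was 0.954 and 0.956, against 0.992 between those 2, and it correlated with BAT arrays at 0.886 to 0.897. The tissue labels fit the defining markers: the summed intensity of 9 brown adipocyte markers such as Ucp1 was 36115 to 38864 in BAT of KO and 34414 to 37952 in BAT of WT. On the WAT arrays that sum was 6021, 6120 and 10321 in KO, the last in replicate 3, against 333 to 397 in WT. All WAT arrays also held epididymal markers, with a sum of 16242 to 55733 in KO and 48718 to 52418 in WT, whereas no BAT array exceeded 205.

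Pdk4, the kinase known for its induction by fasting and fatty acids, had the largest genotype difference of the 8 genes in WAT. It read 637, 660 and 1197 in WAT of KO, against 88.2, 81.9 and 67.7 in WAT of WT. The lowest KO array was above every WT array by a wide margin, and replicate 3 of KO was the highest. The means were 832 ± 317 in KO and 79.3 ± 10.5 in WT (SD, n = 3 each), a 10.5-fold ratio of linear means, and the fitted log2 difference on the log2(intensity + 16) scale was 3.10 (SE 0.19, adjusted p = 3.96e-06, limma with Benjamini-Hochberg adjustment over all genes). Without replicate 3 of KO the log2 difference was 2.81 (adjusted p = 1.21e-08). In BAT, Pdk4 read 5064, 5090 and 4881 in KO against 3561, 3548 and 3451 in WT. The groups did not overlap there either, yet the log2 difference of 0.51 (SE 0.19) did not pass the test (adjusted p = 0.281). Pdk4 was called in BAT without WAT of KO replicate 3 (adjusted p = 0.0056), an array of the other tissue that enters only through the shared spread.

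**Figure D1:**
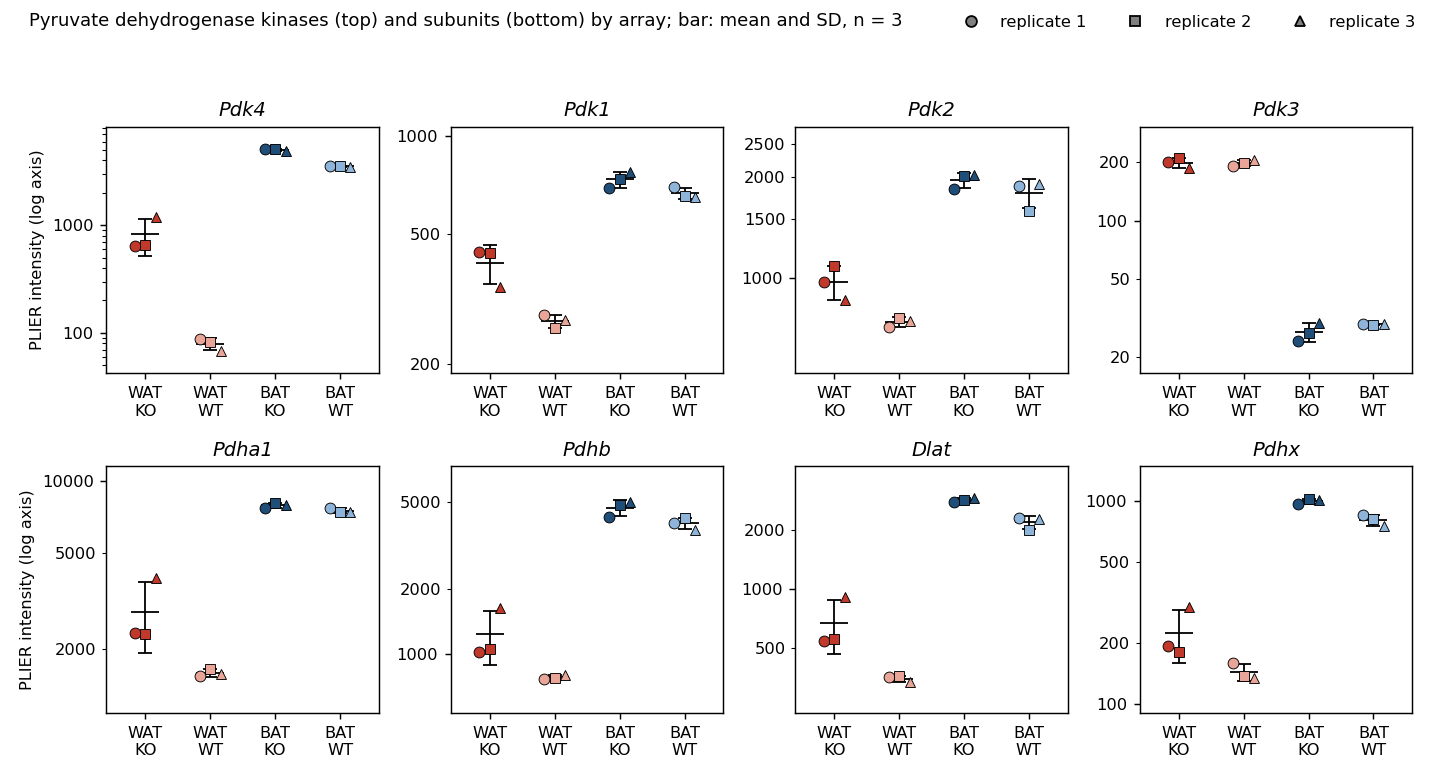
Intensity of each gene on each of the 12 arrays (PLIER units, log axis, a separate range per panel), with kinases above and subunits below; symbols give the replicate and bars the mean and SD of 3 arrays. Pdk4 reads 637 to 1197 in WAT of KO and 67.7 to 88.2 in WAT of WT, and Pdk3 is the 1 gene whose BAT arrays lie below its WAT arrays.

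Pdk1, a kinase known as a target of the hypoxia-inducible factor, read 440, 438 and 344 in WAT of KO against 282, 257 and 273 in WT. All 3 KO arrays lay above the WT arrays, with replicate 3 the lowest of them. The log2 difference was 0.55 (SE 0.10, adjusted p = 0.0147), and it was 0.67 without that array. The call of Pdk1 was lost without WT replicate 2 (adjusted p = 0.0767), WT replicate 3 (0.0643) or KO replicate 2 (0.0539). In BAT, Pdk1 read 692, 738 and 776 in KO against 698, 654 and 651 in WT, and the groups overlapped (log2 difference 0.14, adjusted p = 0.658).

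Pdk2, the most widely expressed of the kinases, read 971, 1088 and 859 in WAT of KO against 714, 763 and 743 in WT. The groups did not overlap, and replicate 3 was again the lowest KO array. The log2 difference of 0.38 (SE 0.11) did not pass (adjusted p = 0.10), but passed without KO replicate 3 (0.47, adjusted p = 0.0235). In BAT the arrays of Pdk2 overlapped, with 1836, 2003 and 2020 in KO against 1875, 1586 and 1907 in WT (log2 difference 0.13, adjusted p = 0.694).

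Pdk3, encoded on the X chromosome and likewise reported as responsive to hypoxia, differed little by genotype. It read 200, 209 and 185 in WAT of KO against 190, 196 and 205 in WT, a log2 difference of 0.00 with a 95% interval of -0.18 to 0.18. In BAT it read 24.1, 26.5 and 30.0 in KO against 29.5, 29.1 and 29.6 in WT, with a log2 difference of -0.08 and an interval of -0.26 to 0.10. The groups overlapped in both tissues.

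The catalytic E1 alpha subunit Pdha1, the protein that the kinases phosphorylate and also X-linked, read 2335, 2319 and 3941 in WAT of KO against 1543, 1660 and 1572 in WT. Its log2 difference was 0.80 (SE 0.17, adjusted p = 0.0265). Pdhb, the E1 beta subunit, read 1028, 1056 and 1635 in KO against 769, 777 and 804 in WT (log2 difference 0.62, SE 0.15, adjusted p = 0.0606). For both genes every KO array was above every WT array and replicate 3 of KO was far above the other KO arrays. The call of Pdha1 was lost without any 1 of the 3 WT arrays of WAT (adjusted p = 0.0826 to 0.109), while Pdhb was called without KO replicate 1 (0.0381) or KO replicate 3 (0.0303).

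Dlat, the E2 subunit that carries the acetyl group on its lipoyl arms, read 543, 557 and 906 in WAT of KO against 352, 356 and 334 in WT. Its log2 difference of 0.87 (SE 0.16, adjusted p = 0.0137) was the second largest of the 8. The call was lost without WT replicate 2 (adjusted p = 0.0519) or WT replicate 3 (0.0703), and without KO replicate 3 the log2 difference was 0.64 (adjusted p = 0.00114). Pdhx, which anchors the E3 subunit to the E2 core, read 193, 182 and 300 in KO against 160, 137 and 134 in WT (log2 difference 0.56, SE 0.15, adjusted p = 0.0904). It was called only without KO replicate 2 (adjusted p = 0.0495). Neither gene's groups overlapped, and KO replicate 3 was the highest array for both.

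In BAT the 4 subunits were each higher on all 3 KO arrays than on all 3 WT arrays, but none passed the test. The summed general and white adipocyte markers, given below, separated the BAT arrays in the same way, although most single markers of both lists overlapped. Dlat read 2791, 2858 and 2925 in BAT of KO against 2300, 2007 and 2289 in WT, a log2 difference of 0.38 (SE 0.16, adjusted p = 0.351). Pdhx read 967, 1023 and 1008 in KO against 853, 819 and 754 in WT (0.30, adjusted p = 0.465). Pdhb, with 4274, 4882 and 5013 in KO against 4041, 4220 and 3741 in WT, had a log2 difference of 0.24 (adjusted p = 0.595). Pdha1 had the smallest gap, with 7737, 8113 and 7957 in KO against 7725, 7458 and 7421 in WT (0.07, adjusted p = 0.919). Dlat was called without WAT of KO replicate 3 (adjusted p = 0.0159).

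Over the 8 genes, 4 were called higher in WAT of KO and 0 lower (Pdk4, Dlat, Pdha1 and Pdk1), in a comparison where 1.27% of all genes were called higher and 1.15% lower. The KO arrays lay above all WT arrays for 7 of the 8, against 9.88% of all genes. The median log2 difference of the 8 was 0.59, against -0.01 over all genes. Without KO replicate 3, 6 of the 8 were called higher (Pdk2 and Pdhb in addition), with 2.18% of all genes called higher and a median of 0.50. When only the 6 WAT arrays were fitted, 1 of the 8 was called, Pdk4, where 0.637% of all genes were called.

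In BAT, 0 of the 8 were called by limma, against 1.72% of all genes. Before adjustment 2 of them, Pdk4 and Dlat, fell under the limma threshold of 0.05, against 12.5% of all genes. The KO arrays lay above all WT arrays for 5 of the 8, against 14.2% of all genes. When only the 6 BAT arrays were fitted, limma called Pdk4 alone among the 8 (adjusted p = 0.0197), where 2.21% of all genes were called. Adjusting the p-values on log values of the authors' deposited table called 2 of the 8 in BAT, Pdk4 (adjusted p = 7.03e-05) and Dlat (0.00798), with 5.38% of all genes called. Without WAT of KO replicate 3 limma called the same pair, with 5.18% of all genes called.

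**Figure D2:**
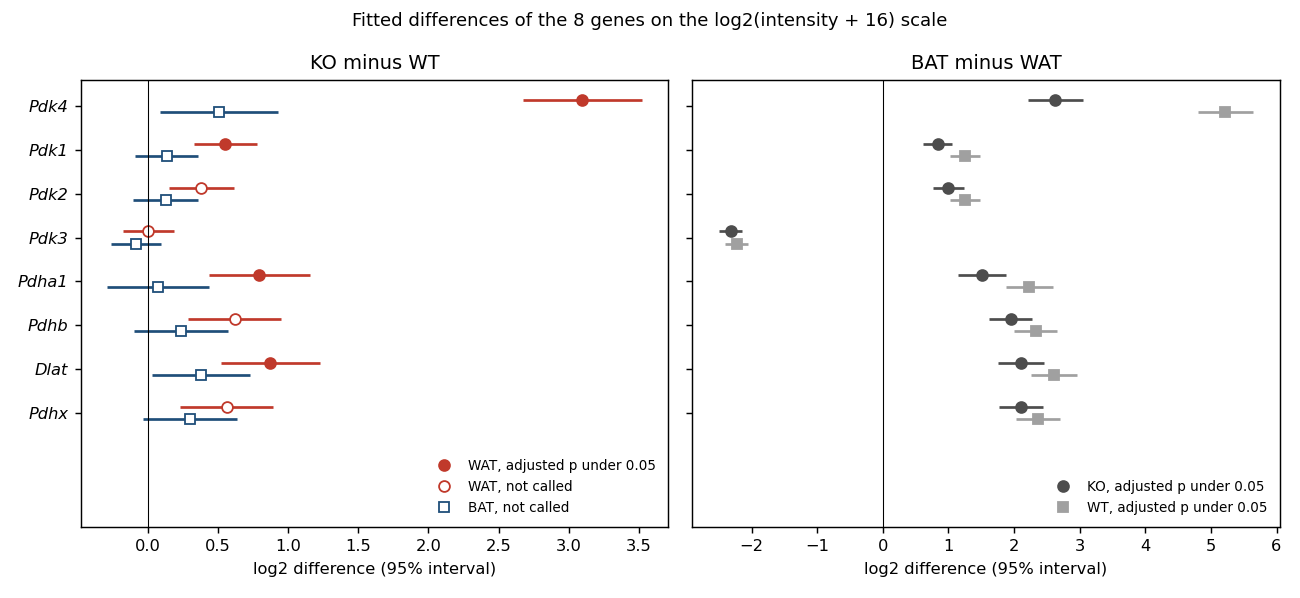
Fitted log2 differences of the 8 genes with 95% intervals, KO minus WT on the left (WAT circles, BAT squares) and BAT minus WAT on the right (KO circles, WT squares); filled symbols passed the test. The genotype difference of Pdk4 in WAT, 3.10, stands clear of its value in BAT, 0.51, and of the other genes, and Pdk3 alone has BAT minus WAT below 0.

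Whether the genotype difference depended on the tissue was tested directly, as the difference in BAT minus the difference in WAT. Pdk4 was the 1 gene of the 8 called (log2 -2.59, SE 0.27, adjusted p = 0.00102), in a test that called 0.592% of all genes. All 8 values were below 0, with a median of -0.40 against 0.03 over all genes. Pdha1 (-0.72, adjusted p = 0.306), Dlat (-0.50, 0.525) and Pdk1 (-0.42, 0.356) did not pass. The same test called 7 of the 9 brown adipocyte markers described below, all with values below 0 like Pdk4 (median of the 9, -2.83). Without WAT of KO replicate 3, 3 of the 8 were called, with Pdk1 at -0.53 (adjusted p = 0.0396) and Pdha1 at -0.47 (0.0446) joining Pdk4 at -2.30, in a test that called 1.87% of all genes.

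Between the tissues, all 8 genes were called in both genotypes. In WT, 7 were higher in BAT than in WAT and 1 was lower, where 20.3% of all genes were called higher and 30.3% lower. The log2 difference was 5.22 for Pdk4, a 44.4-fold ratio of linear means (3520 ± 59.9 in BAT of WT and 79.3 ± 10.5 in WAT of WT). The 4 subunits kept close together, at 2.23 for Pdha1, 2.33 for Pdhb, 2.37 for Pdhx and 2.61 for Dlat, each with an SE of 0.15 to 0.17. Pdk1 and Pdk2 each had a log2 difference of 1.25. Pdk3 was the exception, at -2.23 (SE 0.08, adjusted p = 7.44e-09), with 29.4 ± 0.235 in BAT of WT against 197 ± 7.29 in WAT of WT.

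In KO the same 7 genes were higher in BAT and Pdk3 was lower, where 20.2% of all genes were called higher and 26.8% lower. The log2 difference was 2.63 for Pdk4 (6.03-fold in linear means, 5012 ± 114 in BAT of KO and 832 ± 317 in WAT of KO), 1.51 for Pdha1, 1.95 for Pdhb, and 2.11 for both Dlat and Pdhx. It was 0.84 for Pdk1 and -2.32 for Pdk3 (SE 0.08), and Pdk2 had a 2.01-fold ratio of linear means. The comparisons in WT and in KO use different arrays. Quantile normalization and median centring moved the median BAT minus WAT difference of all genes in WT to 0.14 and 0.28, against -0.03 as deposited, and turned the split of called genes in WT to 6910 higher and 4488 lower, and to 9439 higher and 3834 lower, against 4045 higher and 6044 lower. In KO the splits were 6417 higher and 4002 lower, and 9337 higher and 3391 lower, against 4021 higher and 5352 lower. Under both, all 8 genes kept their direction and call, with Pdk3 in WT at -2.03 and -1.92.

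The order of the 4 groups was the same for 7 of the 8 genes: from high to low, BAT of KO, BAT of WT, then KO and WT in WAT. Neighbouring groups overlapped for Pdk1 and Pdk2, between BAT of KO and BAT of WT, and for no other of the 7. For Pdk3 the order was WAT of KO, WAT of WT, BAT of WT, BAT of KO, and within each tissue the genotypes overlapped.

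Brown adipocyte markers moved with the genotype in WAT: 8 of the 9 measured were called higher in WAT of KO, against 1.27% of all genes. The exception, Zic1, had a log2 difference of 0.06 (adjusted p = 0.928). In BAT 1 of the 9, Slc27a2, was called higher in KO and 0 lower, where 1.72% of all genes were called in either direction. The KO arrays of BAT lay above all WT arrays for 5 of the 9, against 14.2% of all genes, and below them for 2. In bulk tissue, fewer cells of a type and less RNA per cell cannot be told apart. The part of brown adipocyte RNA in the differences in WAT and in BAT was not tested. The WAT arrays of KO can be placed on the distance from WT WAT (0%) to WT BAT (100%) in linear intensity. For replicates 1, 2 and 3 of KO, Ucp1, the uncoupling protein of brown fat, lay at 23.6%, 24.6% and 41.2%, and the median of the 9 markers was 13.0%, 11.5% and 19.3%.

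On the same distance Pdk4 lay at 16.2%, 16.9% and 32.5%, and Dlat at 10.6%, 11.3% and 30.2%. Pdha1 lay at 12.5%, 12.2% and 39.5%. All 3 had their highest value on replicate 3, as did Pdhb (7.62%, 8.48% and 26.5%) and Pdhx (7.41%, 5.69% and 23.5%). Of the WAT arrays, replicate 3 of KO had the highest sums not only of brown markers but also of the white adipocyte, general adipocyte and macrophage markers given below, and the lowest sum of epididymal markers. Pdk1 ran the other way, at 42.6%, 42.0% and 18.4%, and so did Pdk2, at 22.0%, 33.2% and 11.3%. Pdk3 stayed near the WT WAT arrays, at -1.52%, -6.93% and 7.04%. Relative to the WT mean, replicate 3 of KO was 15.1-fold for Pdk4, against 8.04-fold and 8.33-fold for replicates 1 and 2, but 1.27-fold for Pdk1, against 1.62-fold for both.

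**Figure D3:**
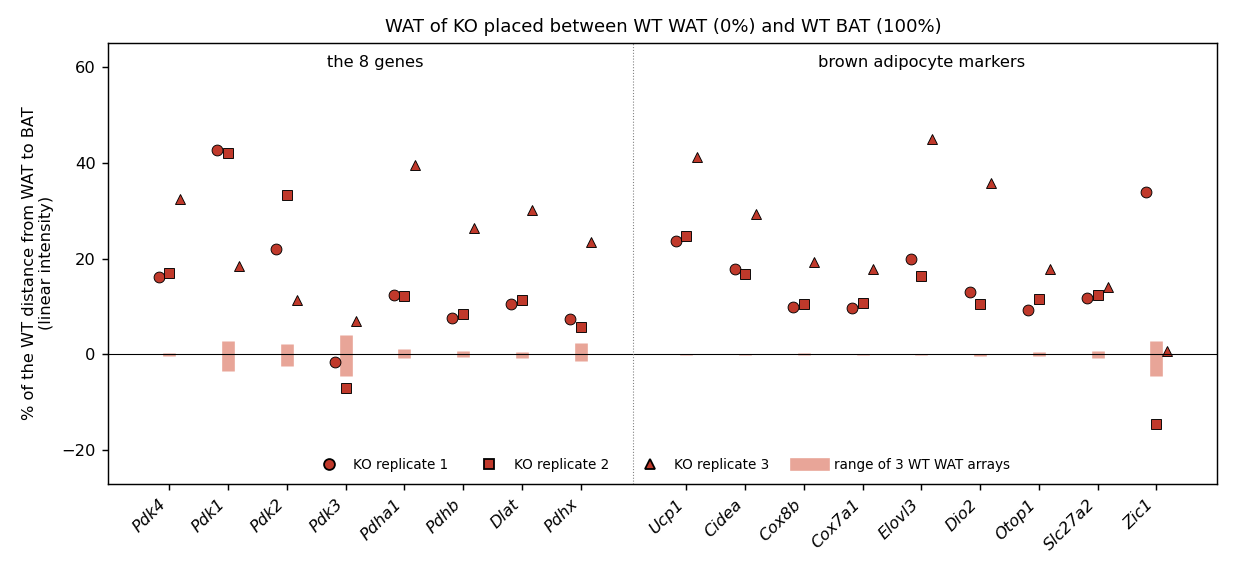
Position of each WAT array of KO on the linear distance from the mean of WT WAT (0%) to the mean of WT BAT (100%), for the 8 genes and 9 brown adipocyte markers; symbols give the replicate and the pale bars span the 3 WT WAT arrays. Replicate 3 is the highest KO array for Pdk4 and the 4 subunits and the lowest for Pdk1 and Pdk2.

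Other cell types were also represented unevenly. The summed intensity of 13 skeletal muscle markers was 544, 1183 and 1761 in WAT of KO (lowest, median, highest), against 220, 220 and 241 in WT. Of the 13, 1 was called higher, Myh4, where 1.27% of all genes were called higher, and their median log2 difference was 1.08. The KO arrays lay above all WT arrays for 11 of the 13, against 9.88% of all genes. The share of muscle RNA in the differences in WAT was not tested. In BAT the muscle sum was 5224, 6779 and 17607 in KO against 9503, 16182 and 39326 in WT. On these BAT arrays Pdk4 read 4881 to 5090 in KO and 3451 to 3561 in WT. The share of muscle RNA in the differences in BAT was not tested. For replicates 1, 2 and 3 of KO the summed white adipocyte markers in WAT (7 measured) were 8522, 8587 and 18091, against 9577 to 10725 in WT. The general adipocyte markers (5 measured, such as Adipoq) were 18730, 19196 and 34082 in KO, against 17507 to 19092 in WT. The macrophage markers (6 measured) were 2127, 2003 and 3680 in KO, against 2555 to 3128 in WT. In BAT the general adipocyte sum was 23208 to 23698 in KO against 21378 to 22532 in WT. The white adipocyte sum was 770 to 1262 in KO against 709 to 758 in WT. Both sums separated the genotypes in the direction of the 4 subunits. The KO arrays lay above all WT arrays for 2 of the 5 general and 2 of the 7 white markers, against 14.2% of all genes. The other markers of both lists overlapped. The macrophage sums of BAT overlapped, at 621 to 832 in KO and 607 to 847 in WT. No gene of these 3 lists was called by genotype in either tissue, and the part of adipocyte RNA in the differences of the 8 genes was not tested. Epididymal markers were lowest in WAT of KO replicate 3, at 16242, the array on which Pdk3 was lowest among the WAT arrays, at 185; this list differed between the tissues in the same direction as Pdk3, and its part in the lower Pdk3 of BAT was not tested.

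The promoters of 3 kinases are shown because their group patterns differ most: Pdk4 with its large genotype difference in WAT, Pdk2 with a small one, and Pdk3, which was lower in BAT. Each line gives the 250 bases before the annotated start, 5′ to 3′ on the gene's strand, from RefSeq on GRCm38.p6; capitals mark every match to the motifs searched.
Pdk4, chr6:5496279-5496528, minus strand: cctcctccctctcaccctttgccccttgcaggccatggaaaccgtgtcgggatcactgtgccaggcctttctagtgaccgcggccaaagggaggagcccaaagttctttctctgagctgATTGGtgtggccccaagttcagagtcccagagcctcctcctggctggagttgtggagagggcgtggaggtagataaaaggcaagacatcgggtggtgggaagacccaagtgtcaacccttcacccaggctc
Pdk2, first of 2 starts, chr11:95041372-95041621, minus strand: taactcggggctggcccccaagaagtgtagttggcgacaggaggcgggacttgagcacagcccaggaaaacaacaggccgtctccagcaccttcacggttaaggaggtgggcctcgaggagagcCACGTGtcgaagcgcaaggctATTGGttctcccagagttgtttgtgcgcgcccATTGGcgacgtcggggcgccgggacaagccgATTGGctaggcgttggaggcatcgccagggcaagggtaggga
Pdk3, chrX:93832151-93832400, minus strand: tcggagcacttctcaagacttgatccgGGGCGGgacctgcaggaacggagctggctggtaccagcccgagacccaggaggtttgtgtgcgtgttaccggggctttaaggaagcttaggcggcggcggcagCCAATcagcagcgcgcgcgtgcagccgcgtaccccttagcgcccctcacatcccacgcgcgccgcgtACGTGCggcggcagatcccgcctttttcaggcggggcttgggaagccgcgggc
The Pdk4 window held a CAAT box (CCAAT, here as its reverse complement) at -131 to -127 and no other match. The Pdk2 window held 3 CAAT boxes and 1 E-box (CACGTG, the element bound by the clock activators that Per2 represses) at -126 to -121. The Pdk3 window held 1 GC box (GGGCGG) at -223 to -218, 1 CAAT box and 1 hypoxia element (ACGTGC) at -53 to -48.

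Over all 8 genes, which have 10 windows of 250 bases because Pdk1 and Pdk2 have 2 starts each, the E-box matched in 1 window, against 6.02% of 32851 windows of all genes, with both strands searched. The hypoxia element also matched in 1 window, against 4.92%, and it can overlap an E-box. CAAT boxes were in 4 windows (33.8% of all) and GC boxes in 5 (32.7% of all). No member window held the D-box (TTATGTAA, 0.819% of all), the nuclear receptor half-site (AGGTCA, 14% of all) or the longer elements that contain it, the PPAR DR1 element (0.0335%) and the ERR element TCAAGGTCA (0.387%). The FOXO element (GTAAACA, 3.17%), the NRF1 element (0.782%) and the ETS element (CCGGAAG, 6.91%) were not matched either. A match describes letters in the window, and nothing is drawn from it about binding.

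The partners of the complex were the E3 subunit Dld, the phosphatases Pdp1 and Pdp2, and the phosphatase regulatory subunit Pdpr. The list also held the pyruvate carrier subunit Mpc1, the genes Lias, Lipt1, Lipt2 and Nfu1, needed for lipoylation, and the testis E1 alpha isoform Pdha2. In WAT, 2 of these 10 were called higher in KO and 0 lower, against 1.27% and 1.15% of all genes. The median log2 difference of the 10 was 0.31. Dld read 917, 892 and 1563 in WAT of KO against 644, 648 and 608 in WT (log2 difference 0.76, adjusted p = 0.0414). Mpc1, which brings pyruvate into mitochondria, read 1060, 912 and 1642 in KO against 740, 641 and 637 in WT (0.78, adjusted p = 0.0398). For both, all KO arrays were above the WT arrays, and both calls were lost without any 1 of the 3 WT arrays of WAT (adjusted p = 0.0780 to 0.162) or any 1 BAT array (0.0575 to 0.0715); Mpc1 was also lost without KO replicate 1 (0.0532). Both were lost too with 1 added in place of 16, under median centring, with only the 6 WAT arrays and by the p-values of the authors' deposited table (adjusted p = 0.0523 to 0.271). Without KO replicate 3 both kept their calls, and the median of the 10 was 0.14.

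Pdp2, the phosphatase known to respond to insulin, read 102, 103 and 139 in WAT of KO against 76.0, 76.1 and 91.5 in WT, and 436, 435 and 428 in BAT of KO against 328, 288 and 335 in WT. Its groups did not overlap in either tissue, with log2 differences of 0.42 in WAT (adjusted p = 0.103) and 0.43 in BAT (adjusted p = 0.109). Without WAT of KO replicate 3 Pdp2 was the 1 partner called in BAT, where 5.18% of all genes were called. Pdp1, the calcium-stimulated phosphatase, overlapped between genotypes in both tissues (log2 difference 0.14 in WAT and 0.00 in BAT). In BAT 0 of the 10 partners were called with all arrays, against 1.72% of all genes, and their median was 0.08.

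The 2 phosphatases also parted between the tissues. Pdp2 was higher in BAT than in WAT, by 1.79 on the log2 scale in KO and 1.78 in WT. Pdp1 was lower in BAT of KO (log2 difference -0.42, adjusted p = 0.0171) but not called in WT (-0.28, adjusted p = 0.0896). The call of Pdp1 was lost without BAT of KO replicate 1 (adjusted p = 0.0739), with only the KO arrays (0.0597), by the authors' deposited table (0.0781), under quantile normalization (0.32) and under median centring (0.353). Without WAT of KO replicate 3, Pdp1 was called lower in BAT of both genotypes (adjusted p = 0.0469 in KO and 0.0357 in WT). Of the 10 partners, 8 were higher and 1 lower in BAT of KO (median 1.21), where 20.2% and 26.8% of all genes were called. In BAT of WT, 7 were higher and 0 lower (median 1.58), where 20.3% and 30.3% of all genes were called. Lipt1, Lias, Nfu1 and Pdpr were higher in BAT in both genotypes, and Pdha2 was called in neither.

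A further list held 13 genes that supply pyruvate or use it otherwise, or, as Cs and Acly, act downstream of the complex. Of these 13, 3 were called higher in WAT of KO and 0 lower, with a median of 0.22. The same comparison called 1.27% of all genes higher and 1.15% lower. Citrate synthase (Cs), which takes up the acetyl-CoA, had a log2 difference of 0.88 (adjusted p = 0.0172), the lactate and pyruvate transporter Slc16a1 of 0.72 (0.0263) and the pyruvate kinase Pkm of 0.51 (0.0259). All 3 calls were lost without any 1 of the 3 WT arrays of WAT (adjusted p = 0.0535 to 0.121), and that of Pkm also with 1 added in place of 16 (0.0515) and by the authors' deposited table (0.259). Without KO replicate 3 the median turned to -0.05, and the alanine transaminase Gpt was called in addition, as lower (log2 difference -0.48, adjusted p = 0.038). That fit called 2.18% of all genes higher and 2.21% lower. Ldhb, the lactate dehydrogenase subunit that favours pyruvate formation, read 542, 603 and 568 in WAT of KO against 526, 581 and 526 in WT, with overlapping arrays (0.07, adjusted p = 0.779). In BAT 0 of the 13 were called (median 0.02), against 1.72% of all genes. Without WAT of KO replicate 3, 1 was called there, the malic enzyme Me1 (0.67, adjusted p = 0.00076), against 5.18% of all genes.

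The list of related 2-oxoacid dehydrogenases, which share the E3 subunit or the reaction scheme, also held the branched-chain kinase Bckdk and phosphatase Ppm1k. Of its 9 genes, 3 were called higher in WAT of KO and 0 lower. The median of the 9 was 0.65, and the comparison called 1.27% of all genes higher and 1.15% lower. The 2-oxoglutarate dehydrogenase subunits Ogdh and Dlst had log2 differences of 0.92 (adjusted p = 0.0028) and 0.88 (0.00349), and Bckdhb, of the branched-chain complex, of 1.39 (0.00579). Bckdha (0.69, adjusted p = 0.102) and the branched-chain kinase Bckdk (0.18, adjusted p = 0.545) did not pass. Without KO replicate 3 the count was 4 higher (Bckdha in addition) and 1 lower (Ogdhl, -0.62, adjusted p = 0.0203). That fit called 2.18% of all genes higher and 2.21% lower, and the median of the 9 was 0.29. In BAT 0 of the 9 were called (median 0.14), against 1.72% of all genes. Bckdhb was called there without WAT of KO replicate 3 (0.82, adjusted p = 0.000281), where 5.18% of all genes were called.

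In WAT of KO, 1.27% of all genes were called higher and 1.15% lower. Of 13 known regulators of the Pdk genes, 1 was called higher there and 0 lower (median 0.10). This was Ppara, the fatty acid receptor, which read 99.9, 111 and 164 in KO against 40.9, 47.7 and 61.8 in WT (log2 difference 1.08, adjusted p = 0.00993). The KO arrays were all above the WT arrays. The estrogen-related receptor Esrra (0.49, adjusted p = 0.0964) and the coactivator Ppargc1b (0.75, adjusted p = 0.104) did not pass, and Esrrg overlapped (0.04, adjusted p = 0.94). Without KO replicate 3, Rxra was also called, as lower (-0.35, adjusted p = 0.0317), where 2.21% of all genes were called lower, and the median was 0.03. In BAT 0 of the 13 were called (median 0.08), against 1.72% of all genes.

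Of 14 PPAR target genes measured, 4 were called higher in WAT of KO and 0 lower, with a median of 0.45. The shares of all genes called were 1.27% higher and 1.15% lower. Fabp3, a fatty acid carrier, read 347, 425 and 704 in KO against 13.0, 11.7 and 18.05 in WT (log2 difference 4.01, adjusted p = 8.67e-07), a larger log2 difference than that of Pdk4. Plin5, a lipid droplet protein, followed (log2 difference 1.53, adjusted p = 0.000105), then the carnitine carrier Slc25a20 (3.04-fold in linear means, adjusted p = 0.000876) and the uncoupling protein homologue Ucp3 (log2 difference 0.91, adjusted p = 0.0376). Ucp3 was lost without any 1 of the 3 WT arrays of WAT (adjusted p = 0.088 to 0.153) or any 1 BAT array (0.0532 to 0.0637), and with 1 (0.0544) or 64 (0.0609) added in place of 16. Without KO replicate 3, 6 of the 14 were called higher in WAT, against 2.18% of all genes. In BAT 0 of the 14 were called (median 0.13), against 1.72% of all genes. Without WAT of KO replicate 3, 4 of the 14 were called in BAT, against 5.18% of all genes. Of the 13 genes of these 5 lists called in WAT, 2 were called when only the 6 WAT arrays were fitted (Fabp3 and Plin5). The lists overlap in function with genes that are high in brown fat. Of the 14 PPAR target genes, 9 were called higher in BAT than in WAT of WT, and 1, Cpt1a, lower. Of all genes, 20.3% were called higher and 30.3% lower in that comparison.

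**Figure D4:**
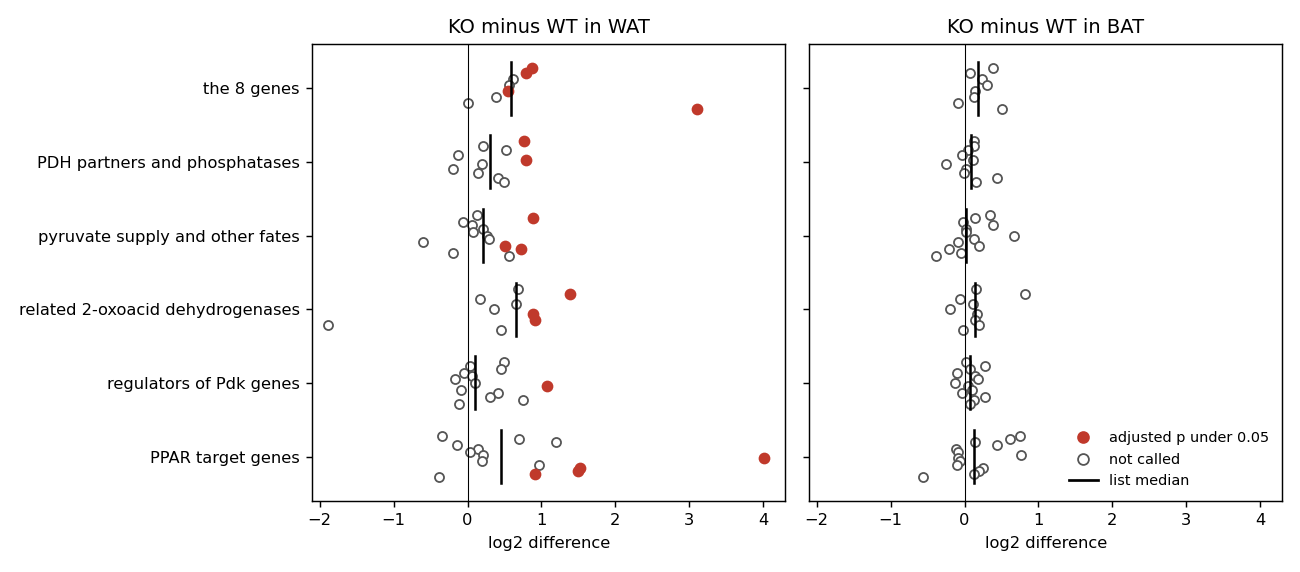
Log2 differences, KO minus WT, of the 8 genes and of 5 pathway lists in WAT (left) and BAT (right); each circle is a gene, filled where it passed the test, and the vertical bars are list medians. The medians in WAT run from 0.10 for the regulators to 0.65 for the related dehydrogenases, and no gene of the 6 rows is filled in BAT.

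The genes whose profile over the 12 arrays was most like that of each of the 8 were found by the root mean square difference of centred log2 values, a description that tissue differences dominate. For Pdk4 these were Acot11, a thioesterase of brown fat (0.28), Kng2, a kininogen (0.34), and Otop1, a proton channel (0.36). Acot11 averaged 230 in WAT of KO against 21.1 in WT, and 1930 in BAT of KO against 1383 in WT.

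For the other kinases, Pdk1 and Pdk2 were close to each other (0.11), after Fam185a for Pdk2 (0.096), and Pdk3 was closest to Hspa2 (0.14) and Plekhh2 (0.14). Among subunits, Pdhb and Pdhx were within 0.098 of each other, and Ndufa9 was nearer still to Pdhb (0.093). Pdha1 was closest to Uqcrc2 (0.073) and Samm50 (0.076), and Dlat to Cpt2 (0.073) and Ndufs1 (0.084). Apart from the kinase pair and Pdhb with Pdhx, the nearest genes lay outside the complex. Pdk4 and Pdk3 were farthest apart of the 8 (3.30).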

How the data were processed

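The authors deposited intensity values on a linear scale; per the submitters' processing notes the tool was PLIER; neither its version nor any joint scaling of arrays is given there. Per the file headers, each p-value in the authors' deposited tables comes from Cyber-T 8.01 (hdarray 3.71, R 2.2.1), and the deposited score is a signed fold of linear means. Of 35557 rows, those tested by the authors (28925) that name 1 gene were kept, with the highest mean per gene, giving 19933 genes; 21698 of 21789 rows naming 1 gene matched a RefSeq gene identifier.

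Log2(intensity + 16) was fitted with limma 3.58.1 in R 4.3.3 on all 12 arrays, as 4 group means, leaving 8 residual degrees of freedom (prior 3.51); adding 16 makes differences of dim genes smaller. All genes entered the Benjamini-Hochberg adjustment, and a call was an adjusted p under 0.05. The fit was tested on simulated data in which all groups shared the same spread per gene, so that test does not cover an array that stands apart. All 8 members are named; of the lists, all partners of the complex and the 4 genes with the smallest p of each other list, with further called members, and for likeness the nearest 3 genes of Pdk4 and 2 of each other member. Bckdhb, Rxra, Gpt, Me1 and Ogdhl were named after their values were seen. The members and lists were chosen with earlier results of these data known. Alternatives were adding 1 or 64, normalization by quantiles or by array medians, only the groups compared, a trend with robust variances, the replicate number as a block, brighter genes, all rows naming 1 gene, the authors' p-values and leaving out each array; their use on the lists was added after seeing the data. Same-numbered arrays had correlated deviations of -0.119 to 0.0918 over 18 pairs, so the numbers were not taken to pair arrays.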

Additional observations from a re-analysis of the deposited data

Results flagged for a closer look

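The genotype difference of Pdk4 depended on the tissue: the difference of KO minus WT in BAT less that in WAT was -2.59 on the log2 scale (SE 0.27, adjusted p = 0.00102, limma with Benjamini-Hochberg adjustment). It drew attention because the test of the difference itself passed for this gene and for no other of the 8 with all arrays. The result was not particular to Pdk4. The test also called 7 of the 9 brown adipocyte markers, with Ucp1 and Otop1 among them. Of the 14 PPAR target genes it called 3 (Fabp3, Plin5 and Slc25a20). All of these had values below 0, and 0.592% of all genes were called in either direction. The call of Slc25a20 was lost under 15 of the 20 alternatives (limma adjusted p up to 0.145). Fabp3 and Plin5 kept theirs under all 20. For Pdk4, each of the 3 KO arrays was above each WT array in both tissues. Groups of 3 arrays were too small for a test of single outlying arrays.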

How the results depend on the processing

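The BAT minus WAT comparisons called all 8 genes, in the same directions, under every alternative. In WAT, 1 of the 8 was called when only the groups compared were fitted (127 genes in all, against 482), and leaving out 1 array gave 1 to 6 of the 8 and 225 to 876 of all genes, the lowest 1 without WT replicate 2 or 3. In BAT, 1 of the 8 was called when only the groups compared were fitted (Pdk4, adjusted p = 0.0197) and 2 by the authors' p-values (1072 genes, against 343), and leaving out 1 array gave 0 to 2 and 165 to 1033. For the difference of differences, leaving out 1 array gave 1 to 3 of the 8 and 59 to 372 of all genes, against 118, and brighter genes alone gave 73. The replicate block left 4, 0, 8, 8 and 1 of the 8 called and gave 76 genes for the difference of differences. It also ended the calls of Dld (adjusted p = 0.0764) and Mpc1 (0.0561) in WAT, leaving 0 of the 10 partners. The calls of Lipt2 between the tissues in KO (0.0509) and of Slc25a20 for the difference of differences (0.0837) ended too. The numbers were not taken to pair the arrays, and these losses under the block are not read as weaker effects. The same calls were also lost elsewhere. Counting the block, Dld lost its call under 14 of 22 alternatives and Mpc1 under 15 of 22. Lipt2 lost its call under 7 of 22 and Slc25a20 under 15 of 20. Of the single genes, Pdk3 in WAT, whose difference is near 0, turned sign without WT replicate 1 (-0.02), KO replicate 1 (-0.0022) or KO replicate 2 (-0.032), with leave-one-out values of -0.032 to 0.0474. Pdha1 lost its call in WAT with 1 added in place of 16 (adjusted p = 0.0512), with only the groups compared (0.235) and by the authors' p-values (0.0753). Pdk1 (0.147) and Dlat (0.168) lost theirs with only the groups compared, and Pdhb gained one among brighter genes (0.0446). The causes were not tested; fewer arrays or genes enter some of these fits. Using other rows of the same gene gave no value, because each member has 1 row. The 3 arrays per group limit all of these values.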
